A study of Mus musculus with 15 samples.

Results

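The genes described here are the 116 of the 32939 genes in the count table that carry respiratory chain symbols: transcripts of the mitochondrial genome (symbols beginning with mt-) and nuclear genes for complexes I to V (Nduf, Sdh, Uqcr, Cox followed by a digit, and Atp5). They were chosen by a rule on symbols, leaving out symbols that hold -ps and genes whose mean over the 15 samples was below 1 CPM (a gene's count per 1000000 counts of its library). The rule was set with earlier results of these data known. Of 143 symbols that matched, 9 were left out for -ps and 18 for a low mean. The mitochondrial genome supplied 16 members, namely its 13 protein genes, the ribosomal RNA genes mt-Rnr1 and mt-Rnr2, and 1 transfer RNA gene, mt-Tp. The nucleus supplied 100, of which symbols placed 79 among structural subunits and 20 among assembly factors, and the last, Atp5s, is a coupling factor linked to ATP synthase. The 79 include Ndufs6b, which GENCODE M21 annotates as a processed pseudogene and whose symbol lacks -ps. The members nearest to the limit were Cox6b2 at 2.22 CPM and Sdhaf1 at 2.45 CPM on the inside and Ndufb4c at 0.820 CPM and Cox6c2 at 0.458 CPM on the outside. All 116 members passed the filter on low counts and were tested. The table uses older symbols, such as Atp5a1 for the alpha subunit of ATP synthase, and Ndufa4 is listed by its symbol under complex I although its protein is known as a subunit of complex IV.

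RNA was taken from colonic crypts, the epithelial glands of the large intestine, of wild-type mice in 3 groups of 5 samples. NL-shGFP mice had a normal diet, a normal liver and an adeno-associated virus (AAV) with the control hairpin shGFP. FL-shGFP mice had the CDAA diet, a fatty liver and the same AAV-shGFP, and FL-shAlpl mice had the CDAA diet, a fatty liver and AAV-shAlpl, a hairpin against the alkaline phosphatase gene Alpl. No group combined a normal liver with AAV-shAlpl, and diet and liver condition changed together, so their parts cannot be told apart. The sources used here do not give age, sex, the promoter of the AAV, the time on diet or whether replicates came from separate animals. The p-values below therefore speak only to the spread among these samples, which may be technical.

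The respiratory chain sits in the inner mitochondrial membrane. Complexes I and II pass electrons to ubiquinone, complex III passes them on to cytochrome c, complex IV hands them to oxygen, and the proton gradient built on the way drives ATP synthase, also called complex V. Complexes I, III, IV and V each combine subunits encoded in mitochondrial DNA with subunits encoded in the nucleus, while complex II is nuclear alone, and dedicated assembly factors insert cofactors and join the parts. Colonic epithelial cells are known to oxidise butyrate made by gut bacteria, and the respiratory chain takes up the electrons this releases.

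Libraries held 33272941 to 58590251 counts. The 9 epithelial markers listed were all tested and summed to 6658 to 11420 CPM. Alpl itself was near 0 in all crypt libraries, at 0 to 0.0484 CPM in NL-shGFP, 0.271 to 0.667 CPM in FL-shGFP and 0 to 0.113 CPM in FL-shAlpl. The fatty liver groups did not overlap, with FL-shAlpl the lower. Alpl in the liver was not analysed here. In FL-shGFP against NL-shGFP, markers of other cells and of crypt position also moved: 11 of 12 stem cell and 7 of 12 proliferation markers fell, and 10 of 12 surface colonocyte and 8 of 14 stromal markers rose. Of all genes tested in that comparison 25.1% were higher and 21.6% lower, and the 2 goblet cell falls given next lay near that share. Of 8 goblet cell markers 4 rose and 2 fell, and their sum, the highest of the lists, ran from 22460 to 26550 CPM in NL-shGFP, from 25390 to 49790 CPM in FL-shGFP and from 13290 to 30490 CPM in FL-shAlpl. Of 18 immune markers 13 rose, with summed levels of 138 to 346 CPM in NL-shGFP, against 484 to 1196 CPM for FL-shGFP and 123 to 348 CPM for FL-shAlpl. Summed surface colonocyte markers ran from 1116 to 2612, from 4709 to 10680 and from 1877 to 4441 CPM in the same order of groups, and summed stem cell markers from 343 to 525, from 128 to 258 and from 233 to 409.7 CPM. Summed stromal and muscle markers ran from 13.3 to 55.4, from 60.2 to 325 and from 28.1 to 293 CPM, and proliferation markers from 985 to 1316, from 144 to 995 and from 507 to 2146 CPM. No listed marker was at 0 in all samples. The part of these shifts in the results below was not tested. In bulk samples such as these, fewer cells of a type and less RNA per cell cannot be told apart. NL-shGFP replicates 3 and 4, and to a lesser degree 1 and 2, resembled each other more than other NL-shGFP pairs did. Their median chi-square per gene was 0.743 and 1.36 against 2.01 to 5.69 (on counts halved, since small counts were mostly even), and they were kept as separate samples.

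Mitochondrially encoded transcripts took up a smaller share of the RNA in both fatty liver groups. Their share of all counts was 32.9, 30.8, 37.5, 36.7 and 27.99% in the NL-shGFP samples, 14.5, 13.7, 15.1, 21.4 and 18.9% for FL-shGFP and 21.96, 22.1, 14.8, 16.6 and 24.3% for FL-shAlpl. The group means were 33.2% ± 3.98 (SD, n = 5), 16.7% ± 3.32 (SD, n = 5) and 19.9% ± 4.03 (SD, n = 5). Every sample of either fatty liver group lay below every NL-shGFP sample, whereas the fatty liver groups overlapped each other.

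How the 100 nuclear members compared depended on whether mitochondrial counts were kept in the total. Out of all counts they made up 1.44% ± 0.107 (SD, n = 5) in NL-shGFP, against 1.43% ± 0.240 for FL-shGFP and 1.71% ± 0.129 for FL-shAlpl. With the mt- counts taken out of the total, the shares became 2.15% ± 0.0927, 1.72% ± 0.255 and 2.13% ± 0.0653. On that second scale the 5 FL-shGFP samples ran from 1.32 to 1.95% and lay below the 2.06 to 2.30% of NL-shGFP and the 2.09 to 2.24% of FL-shAlpl without overlap. On the first scale FL-shGFP, from 1.04 to 1.64%, spanned the NL-shGFP range of 1.32 to 1.59%. FL-shGFP replicate 4 had the lowest nuclear share on both scales, and also the lowest summed proliferation markers, 144 CPM, and the highest summed stromal markers, 325 CPM.

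The ratio of mitochondrial to nuclear member counts does not depend on any library total. On the log2 scale it was 4.54, 4.27, 4.83, 4.75 and 4.24 in the NL-shGFP samples, 3.38, 3.06, 3.32, 4.37 and 3.58 for FL-shGFP and 3.75, 3.75, 3.02, 3.15 and 3.94 for FL-shAlpl. FL-shGFP replicate 4 lay within the NL-shGFP range and all other fatty liver samples lay below it. The difference of the group means was -0.98 for FL-shGFP minus NL-shGFP, -1.001 for FL-shAlpl minus NL-shGFP and -0.02 for FL-shAlpl minus FL-shGFP. These ratios are given as a description without a test.

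**Figure D1:**
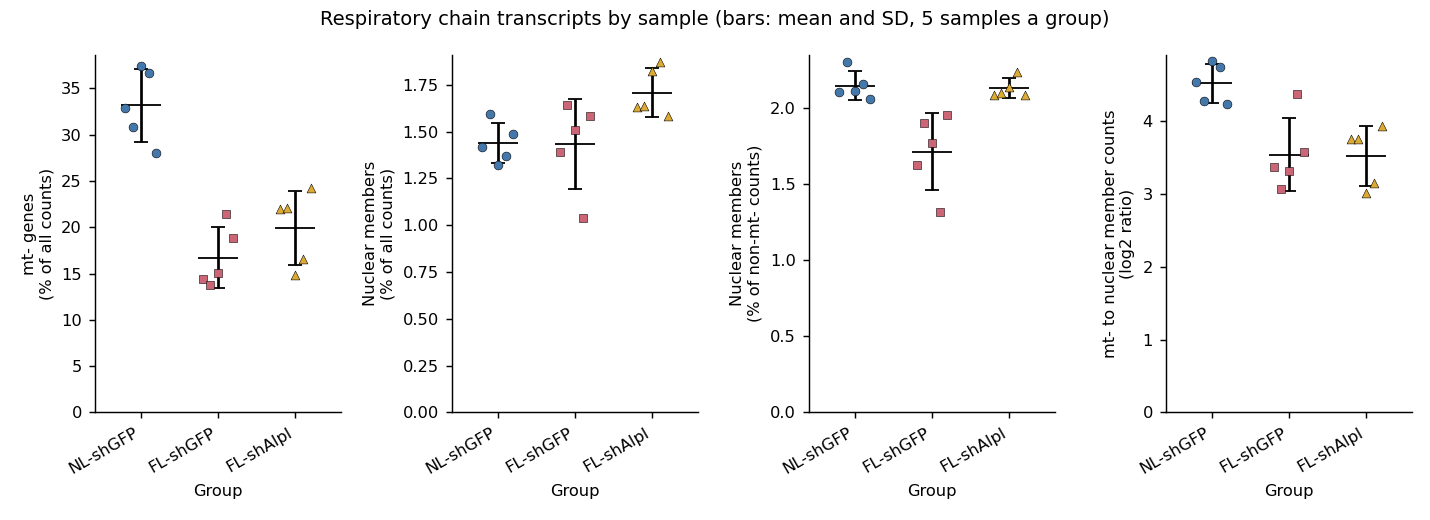
Share of mt- genes in all counts (%), share of the 100 nuclear members in all counts (%) and in the counts outside mt- genes (%), and the log2 ratio of mt- to nuclear member counts, by group; points are samples, bars are the mean and SD of 5. The mt- share was 27.99 to 37.5% in NL-shGFP and at most 24.3% in the fatty liver groups, and the nuclear share set FL-shGFP apart only once mt- counts were left out of the total.

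All 13 mitochondrial protein genes fell in FL-shGFP against NL-shGFP (edgeR quasi-likelihood test with Benjamini-Hochberg adjustment over all genes, adjusted p below 0.05). None of the 16 mt- members rose, and among the 17404 genes tested 25.1% were higher and 21.6% lower. The median log2 fold change was -1.21 for the 13 protein genes and -1.07 for the 16 members, against 0.00 for all genes. In CPM, 10 of the 16 had all FL-shGFP samples below all NL-shGFP samples, as 9.23% of the genes tested did. The other 6, mt-Atp8, mt-Nd4l, mt-Nd5, mt-Rnr1, mt-Rnr2 and mt-Tp, overlapped between the groups.

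The complex IV core subunits are mt-Co1, which holds the oxygen-reducing site, mt-Co2, which takes up electrons from cytochrome c, and mt-Co3. mt-Co1 alone made up 50.6 to 52.5% of mt- counts in the mean of each group, and its level was 174100, 164000, 183000, 180200 and 136700 CPM in the NL-shGFP samples, 76520, 71740, 84730, 107200 and 96020 for FL-shGFP and 106700, 111600, 75440, 95900 and 125800 for FL-shAlpl. All FL-shGFP samples were below all NL-shGFP samples, and mt-Co1 fell by 0.99 ± 0.24 on the log2 scale (SE; adjusted p = 0.00357). mt-Co2 was at 1194, 1460, 2231, 2333 and 1105 CPM in the NL-shGFP samples, 539, 411, 540.4, 817 and 976 for FL-shGFP and 900.1, 712, 439.5, 662 and 1167 for FL-shAlpl. FL-shGFP again lay below NL-shGFP throughout, and mt-Co2 fell by 1.42 ± 0.32 on the log2 scale (SE; adjusted p = 0.00268). mt-Co3 was at 914, 4661, 1225, 1477 and 857 CPM in the NL-shGFP samples, 314, 296, 310.2, 476 and 809.7 for FL-shGFP and 612, 458, 321, 561 and 702 for FL-shAlpl. It fell by 2.12 ± 0.46 on the log2 scale (SE; adjusted p = 0.00195), but NL-shGFP replicate 2, at 4661 CPM, stood far above the other NL-shGFP samples, which reached 1477 CPM at most. Without that sample the log2 fold change of mt-Co3 was -1.44 and still passed the test.

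mt-Cytb is the 1 mitochondrially encoded subunit of complex III. Its level was 56200, 51700, 69520, 67770 and 57810 CPM in the NL-shGFP samples, 20660, 20520, 18540, 28910 and 30500 for FL-shGFP and 39210, 34590, 24010, 28270 and 38980 for FL-shAlpl. The groups NL-shGFP and FL-shGFP did not overlap, and mt-Cytb fell by 1.40 ± 0.23 on the log2 scale (SE; adjusted p = 0.000307). Its part of all mt- counts was 18.3% ± 1.54 (SD, n = 5) in NL-shGFP, against 14.2% ± 1.45 for FL-shGFP and 16.6% ± 0.870 for FL-shAlpl.

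Complex I takes 7 subunits from mitochondrial DNA, which form its membrane arm. mt-Nd1, next to the quinone site, was at 32690, 29300, 43790, 42620 and 30680 CPM in the NL-shGFP samples, 17260, 15960, 19010, 27310 and 25170 for FL-shGFP and 29560, 26850, 17810, 15370 and 27500 for FL-shAlpl. It fell by 0.83 ± 0.26 on the log2 scale (SE; adjusted p = 0.0168), with no overlap. mt-Nd4, a proton-pumping subunit, was at 14160, 14260, 18130, 17380 and 14540 CPM in the NL-shGFP samples, 5645, 6409, 5636, 8937 and 8473 for FL-shGFP and 10130, 9597, 6111, 7372 and 11330 for FL-shAlpl. The FL-shGFP samples were all lower than NL-shGFP, and the gene fell by 1.21 ± 0.23 on the log2 scale (SE; adjusted p = 0.000819). mt-Nd2 fell by 1.37 ± 0.28 (adjusted p = 0.00131) and mt-Nd3 fell by 1.52 ± 0.31 (adjusted p = 0.00145), again without overlap. mt-Nd5 fell by 0.77 ± 0.27 (adjusted p = 0.0272) and mt-Nd4l fell by 0.91 ± 0.34 (adjusted p = 0.0413), but here single FL-shGFP samples reached into the NL-shGFP range. Both lost the call when NL-shGFP replicate 3 or 4 or FL-shGFP replicate 1, 2 or 3 was left out, and mt-Nd4l also without NL-shGFP replicate 1.

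mt-Nd6 is the only protein gene read from the light strand of the mitochondrial genome. It was at 4347, 3764, 5728, 5686 and 3820 CPM in the NL-shGFP samples, 2122, 1500, 2129, 3139 and 2278 for FL-shGFP and 3149, 3327, 2393, 904 and 3329 for FL-shAlpl. It fell by 1.11 ± 0.32 on the log2 scale (SE; adjusted p = 0.0111), close to the median of the 13. In FL-shAlpl, replicate 4 stood at 904 CPM and 0.544% of its mt- counts, against 2393 to 3329 CPM in the other FL-shAlpl samples.

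Complex V has 2 mitochondrially encoded subunits, mt-Atp6, which forms the proton path, and mt-Atp8. mt-Atp6 was at 440.5, 438, 494, 1210 and 368 CPM in the NL-shGFP samples, 160, 146, 177, 252 and 274 for FL-shGFP and 743, 261, 258, 289.8 and 316 for FL-shAlpl. FL-shGFP was below NL-shGFP in all samples and the gene fell by 1.62 ± 0.37 on the log2 scale (SE; adjusted p = 0.00300). NL-shGFP replicate 4 and FL-shAlpl replicate 1 were the highest of their groups by a wide margin. mt-Atp8 was at 38.4, 58.8, 43.01, 32.4 and 24.5 CPM in the NL-shGFP samples, 13.7, 9.89, 15.9, 33.6 and 27.6 for FL-shGFP and 28.9, 26.9, 10.7, 10.3 and 17.3 for FL-shAlpl. It fell by 1.02 ± 0.38 on the log2 scale (SE; adjusted p = 0.0403), and the test no longer passed when any of NL-shGFP replicates 1 to 4 or FL-shGFP replicates 1 to 3 was left out (log2 fold change -1.08 to -0.85).

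The mitochondrial RNAs outside the protein genes did not pass the test in FL-shGFP. mt-Rnr1, the small ribosomal RNA, was at 5172, 4778, 4524, 4050 and 2478 CPM in the NL-shGFP samples, 2539, 2670, 2102, 4890 and 2154 for FL-shGFP and 3191, 4325, 2378, 1815 and 2646 for FL-shAlpl. Its change was -0.58 ± 0.32, adjusted p = 0.144. mt-Rnr2, the large ribosomal RNA, was at 7474, 6496, 6046, 5266 and 3445 CPM in the NL-shGFP samples, 4004, 4292, 3136, 8161 and 2944 for FL-shGFP and 4030, 6684, 3718, 2488 and 4977 for FL-shAlpl, a change of -0.37 ± 0.35, adjusted p = 0.403. FL-shGFP replicate 4 was the highest of its group for both, at 4890 and 8161 CPM, and mt-Rnr1 passed the test at -0.91 without that sample and at -0.86 with totals without mt- counts. With those totals the median of all genes was itself -0.27, and 6258 of 17584 genes were lower. mt-Tp, the proline transfer RNA gene, averaged 983 CPM ± 124 (SD, n = 5) in NL-shGFP and 724 CPM ± 151 in FL-shGFP, -0.50 ± 0.22, adjusted p = 0.0765. The labels describe enrichment of messenger RNA, and its part in the levels of these RNAs was not tested. The other mt- transfer RNA genes of the table averaged 0.123 CPM or less over the 15 samples. mt-Tp and mt-Nd6 both lie on the minus strand, and whether the counting used strand is not given. RNA of the opposite strand in their counts therefore cannot be told apart.

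**Figure D2:**
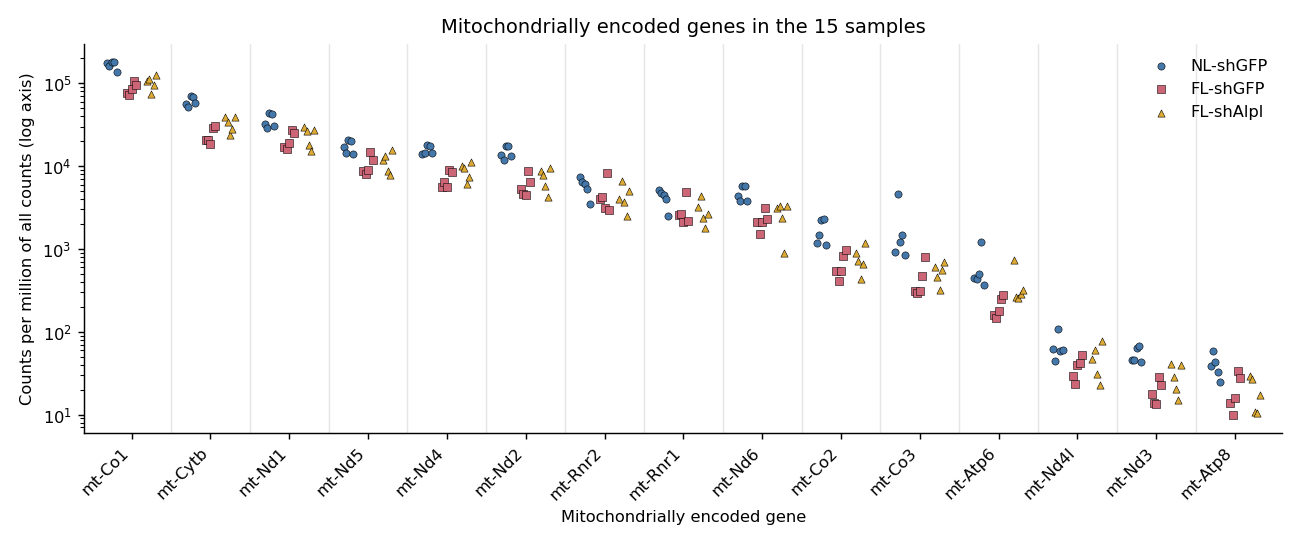
Level of 15 mitochondrially encoded genes in each of the 15 samples, in CPM of all counts on a log axis; each point is a sample and genes are ordered by their mean. The FL-shGFP squares lie below the NL-shGFP circles for mt-Co1, mt-Cytb and mt-Nd1, and the mt-Rnr2 values of the groups overlap, with 8161 CPM in FL-shGFP replicate 4.

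Several mt- genes share their sequence with nuclear copies of mitochondrial DNA that the table lists as genes of their own. In GENCODE M21 (build GRCm38) a block of them lies at chr1:24611535-24616197 on the minus strand, annotated as pseudogenes. Gm28437 equals mt-Co3 over 783 bases with 0 mismatches, Gm10925 equals mt-Atp6 over 678, Gm28661 equals mt-Co2 over 681, Gm10222 equals mt-Nd4l over 294 and Gm28439 equals mt-Nd4 over 876. Gm28438 differs from mt-Nd3 at 1 of 345 bases, T3C, and Gm29216 differs from mt-Co1 at 6 of 492 bases, T1056A, C1057T, A1059G, A1060G, C1062A and A1066T, with the mitochondrial base first and positions counted from 1 at the 5′ end of the mitochondrial transcript. The differences from mt-Co1 all lie at the start of the aligned stretch, which begins at position 1054, and its remaining bases are identical. Within the aligned stretches, bases outside the listed positions do not tell either pair apart. Of the 50-base stretches of mt-Co1, 28.7% also occur in Gm29216. The 2 pairs with any difference are shown here over 60 bases, 5′ to 3′, with the differing bases in capitals.
mt-Nd3: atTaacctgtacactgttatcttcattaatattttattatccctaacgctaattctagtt
Gm28438: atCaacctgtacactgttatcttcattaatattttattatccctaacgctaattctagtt
mt-Co1: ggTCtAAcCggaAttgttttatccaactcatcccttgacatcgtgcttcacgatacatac
Gm29216: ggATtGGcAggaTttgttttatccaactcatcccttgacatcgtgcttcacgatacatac
The windows cover positions 1 to 60 of mt-Nd3 (gene at chrM:9459-9806, plus strand) and 1054 to 1113 of mt-Co1 (gene at chrM:5328-6872, plus strand), both within coding sequence.

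The share of 50-base stretches also found in other annotated transcripts was 99.5% for mt-Atp6, 100% for mt-Co2, 99.9% for mt-Co3, 98.0% for mt-Nd3 and 98.8% for mt-Nd4l. It was 62.2% for mt-Nd4 and 51.1% for mt-Co1, and 0% for mt-Cytb, mt-Nd1, mt-Nd6, mt-Atp8 and mt-Rnr1. The search left out genome sequence outside annotated transcripts. mt-Atp8 (chrM:7766-7969) follows mt-Co2 and runs into mt-Atp6, and their copies Gm28661 and Gm10925 are neighbours in the chr1 block. The bases between these copies were not searched, so 0% for mt-Atp8 does not show that it lacks a nuclear copy. Per length, the shared genes were the lowest of the protein genes together with mt-Atp8: mean FPKM (counts scaled to gene length and library size) over NL-shGFP was 2433 for mt-Co2, 2330 for mt-Co3, 867 for mt-Atp6, 224 for mt-Nd4l, 193 for mt-Atp8 and 152 for mt-Nd3, against 108500 for mt-Co1, 52970 for mt-Cytb and 37420 for mt-Nd1. How the authors' counting treated reads that fit several places is not given in the sources used here, so levels of the shared genes are uncertain, and the part of the copies in their low level was not tested.

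Counts of each gene and its copy were also added up. The sum of mt-Co3 and Gm28437 was 1663, 5431, 2049, 2359 and 1414 CPM in the NL-shGFP samples, 592, 616, 589.5, 905 and 1221 for FL-shGFP and 1092, 875, 589, 1013 and 1194 for FL-shAlpl. The sum of mt-Atp6 and Gm10925 was 1164, 1103, 1373, 2074 and 969 CPM in the NL-shGFP samples, 467, 438, 522, 794 and 729.6 for FL-shGFP and 1277, 788, 588, 613 and 902 for FL-shAlpl. In both, every FL-shGFP sum was below every NL-shGFP sum, and Gm28437 held 14.2 to 45.03% of the mt-Co3 sum in NL-shGFP and 33.7 to 51.9% in FL-shGFP. Of 10 listed copies, 9 fell and none rose, with a median log2 fold change of -1.13. The exception was Gm10221, the only one that shares no 50-base stretch with an mt- gene, at 39.5 CPM ± 3.46 (SD, n = 5) in NL-shGFP and 44.2 CPM ± 9.33 in FL-shGFP, 0.11 ± 0.12, adjusted p = 0.493. mt-Cytb and mt-Nd1, which share no 50-base stretch with another annotated transcript, fell as well.

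Among the 100 nuclear members, 2 rose and 23 fell in FL-shGFP against NL-shGFP, below the 25.1% and near the 21.6% of all genes. Their median log2 fold change was -0.13. Of the assembly factors, 9 of 20 fell and none rose, with a median of -0.33, whereas 13 of 79 structural subunits fell and 2 rose, with a median of -0.12. No subunit of complex II (4 genes) or complex V (16 genes) passed the edgeR test, and at an unadjusted p below 0.05 the counts were 0 and 1 lower and 0 and 0 higher. The size of this group depended on the library scale. When totals with mt- counts alone set the scale, 9 nuclear members and 2351 of the 17404 genes tested fell. When totals without mt- counts did, 63 nuclear members fell. On the latter scale the median of all genes was itself -0.27 with 2831 genes higher and 6258 lower (4376 and 3752 in the reported fit), and the medians of the structural subunits and the assembly factors were -0.38 and -0.59.

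**Figure D3:**
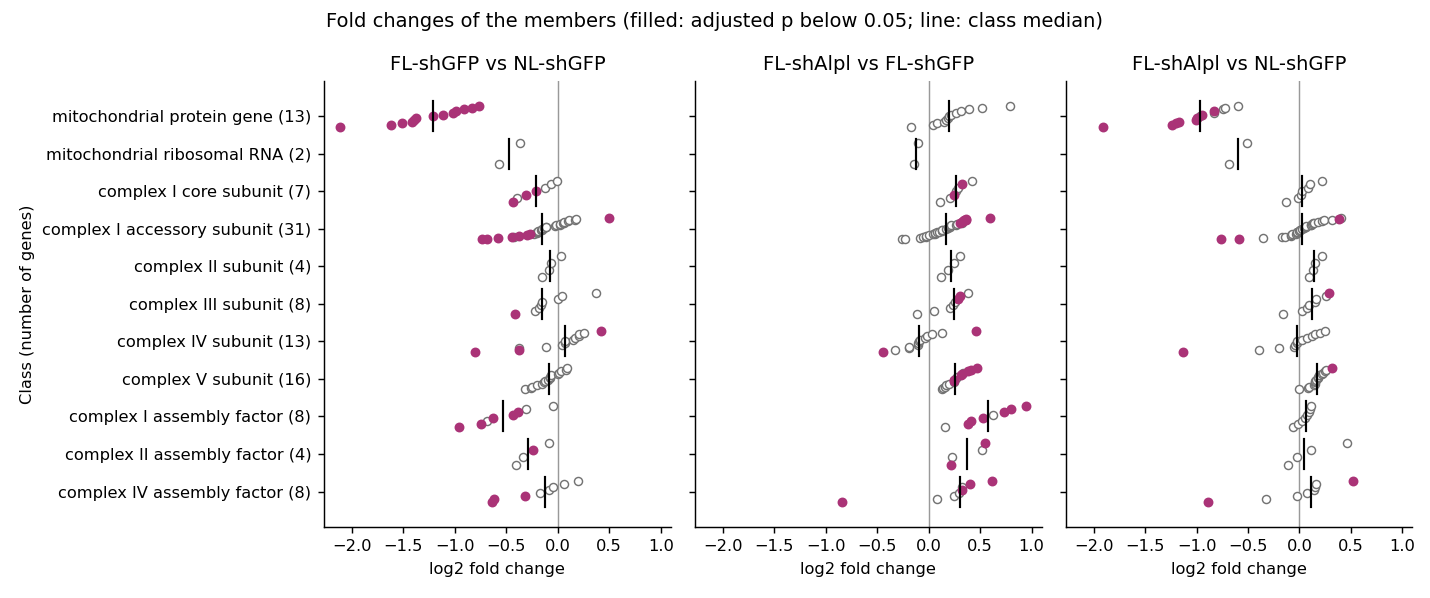
Log2 fold change of each member in the 3 comparisons, by class, with the number of genes in brackets; filled points had an adjusted p below 0.05 (edgeR), open points did not, and the short line is the class median. mt-Tp and Atp5s are not drawn. In FL-shGFP vs NL-shGFP all 13 mitochondrial protein genes are filled and left of 0, in FL-shAlpl vs FL-shGFP none are, and 6 of 8 complex I assembly factors are filled on the right.

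Complex I assembly factors build the enzyme stepwise without staying in it, and 5 of 8 fell, with a median of -0.53. Ndufaf4, which acts on the early peripheral arm, was at 23.4, 22.3, 28.8, 28.5 and 36.8 CPM in the NL-shGFP samples, 12, 16.1, 15.2, 10.4 and 21.4 for FL-shGFP and 49.3, 23.1, 38.3, 22.1 and 21.2 for FL-shAlpl. All FL-shGFP samples were below all NL-shGFP samples, and Ndufaf4 fell by 0.96 ± 0.21 on the log2 scale (SE; adjusted p = 0.00216). Ndufaf2, which helps to join the late module of complex I, was at 19.9, 19.6, 17.8, 18.3 and 21.97 CPM in the NL-shGFP samples, 11.8, 12.2, 14.96, 7.74 and 13.8 for FL-shGFP and 23.8, 18.9, 27.1, 22.4 and 19.6 for FL-shAlpl. It fell by 0.75 ± 0.12 on the log2 scale (SE; adjusted p = 0.000194) without overlap, but 65.6% of its exonic bases are also exon of B230220B15Rik on the opposite strand, and whether the counting used strand is not given. Ndufaf5, which hydroxylates an arginine of the core subunit Ndufs7, was at 11.03, 11.2, 9.82, 10.9 and 13.7 CPM in the NL-shGFP samples, 7.37, 7.28, 8.65, 4.80 and 10.1 for FL-shGFP and 15.9, 10.7, 14.8, 14.5 and 11.1 for FL-shAlpl. FL-shGFP replicate 5 reached the NL-shGFP range, and the gene fell by 0.63 ± 0.14 on the log2 scale (SE; adjusted p = 0.00185). Ndufaf1 fell by 0.44 ± 0.12 (adjusted p = 0.00964) and Ndufaf7 fell by 0.39 ± 0.12 (adjusted p = 0.0181), both with overlap between the groups.

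In complex IV, 3 of 8 assembly factors fell. Cox10, which makes haem O on the way to the haem A of complex IV, was at 32.5, 34.99, 33.6, 33.9 and 35.1 CPM in the NL-shGFP samples, 20.3, 24.1, 25.7, 13.3 and 31.5 for FL-shGFP and 41.4, 30.2, 38.5, 46.4 and 28.7 for FL-shAlpl. The groups did not overlap, and Cox10 fell by 0.64 ± 0.15 on the log2 scale (SE; adjusted p = 0.00277). Cox18, which inserts part of mt-Co2 into the membrane, was at 6.003, 8.37, 7.02, 7.71 and 8.69 CPM in the NL-shGFP samples, 4.07, 4.12, 5.60, 3.79 and 8.30 for FL-shGFP and 9.92, 4.86, 5.24, 8.40 and 4.97 for FL-shAlpl. FL-shGFP replicate 5 lay among the NL-shGFP samples and the gene fell by 0.62 ± 0.22 on the log2 scale (SE; adjusted p = 0.0288). Cox17, the copper chaperone, was at 3.77, 3.58, 3.75, 3.86 and 4.63 CPM in the NL-shGFP samples, 4.71, 3.21, 3.77, 3.76 and 4.05 for FL-shGFP and 2.90, 1.57, 3.60, 1.85 and 1.83 for FL-shAlpl, a change of -0.05 ± 0.20, adjusted p = 0.858.

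Of the 38 structural subunits of complex I, 10 fell and 1 rose. Ndufab1, the mitochondrial acyl carrier protein, was at 57.1, 62.8, 56.6, 58.9 and 69.01 CPM in the NL-shGFP samples, 40.4, 46.5, 44.2, 29.9 and 49.9 for FL-shGFP and 74.3, 55.01, 76, 71.03 and 60.6 for FL-shAlpl. All FL-shGFP samples were lower than all NL-shGFP samples and it fell by 0.58 ± 0.09 on the log2 scale (SE; adjusted p = 0.000210). Ndufa4, the complex IV subunit with a complex I symbol, was at 115, 129.5, 134, 143 and 145 CPM in the NL-shGFP samples, 74.5, 82.8, 102, 47.4 and 131 for FL-shGFP and 135, 84.5, 102, 104 and 67.5 for FL-shAlpl. It fell by 0.69 ± 0.18 on the log2 scale (SE; adjusted p = 0.00612), and FL-shGFP replicate 5 overlapped NL-shGFP. Among the 7 nuclear core subunits Ndufs1 fell by 0.31 ± 0.09 (adjusted p = 0.00974), Ndufs3 fell by 0.21 ± 0.08 (adjusted p = 0.0443) and Ndufs8 fell by 0.44 ± 0.16 (adjusted p = 0.0355). Each of them overlapped between the groups. Ndufs3 in FL-shGFP replicate 5, at 103.7 CPM, lay above all NL-shGFP samples (86.0 to 96.6 CPM). Ndufb2, at only 1.49 to 5.47 CPM in these 2 groups, fell by 0.74 ± 0.23 on the log2 scale (SE; adjusted p = 0.0178).

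The 2 nuclear members that rose were accessory subunits. Ndufa6, of the complex I matrix arm, was at 106, 125, 96.03, 96.8 and 108 CPM in the NL-shGFP samples, 156, 199, 146, 126 and 145 for FL-shGFP and 119, 180.1, 156, 155 and 159 for FL-shAlpl. Each FL-shGFP sample exceeded each NL-shGFP sample, and Ndufa6 rose by 0.49 ± 0.15 on the log2 scale (SE; adjusted p = 0.0128). Cox6a1, the non-muscle form of complex IV subunit 6A, was at 289.9, 357, 275, 298 and 301 CPM in the NL-shGFP samples, 407, 526, 395, 382 and 381 for FL-shGFP and 258, 316, 324, 389 and 349 for FL-shAlpl. It rose by 0.42 ± 0.14 on the log2 scale (SE; adjusted p = 0.0261) without overlap, and FL-shGFP replicate 2 was the highest of its group.

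In complex III, Uqcrh, the hinge protein that binds cytochrome c1, was at 305, 337, 276, 295 and 346 CPM in the NL-shGFP samples, 238, 266, 266, 160.3 and 288 for FL-shGFP and 284, 329, 377, 259 and 282 for FL-shAlpl. It fell by 0.41 ± 0.13 on the log2 scale (SE; adjusted p = 0.0140), with overlap, and was the only one of 8 subunits to pass. In complex IV, Cox7a2l, a factor in joining complexes III and IV, was at 145, 158, 145, 151 and 195 CPM in the NL-shGFP samples, 120.2, 117, 133, 92.8 and 174 for FL-shGFP and 182, 181, 194, 183 and 174 for FL-shAlpl. FL-shGFP replicate 5 lay within the NL-shGFP range, and Cox7a2l fell by 0.38 ± 0.10 on the log2 scale (SE; adjusted p = 0.00649). Cox6b2, at only 0.929 to 3.60 CPM in these 2 groups, also passed the test, with a log2 fold change of -0.80 and with overlap. Atp5s was at 5.89, 5.92, 6.14, 5.19 and 7.21 CPM in the NL-shGFP samples, 3.55, 3.17, 2.86, 2.72 and 6.07 for FL-shGFP and 6.13, 5.84, 7.37, 4.82 and 6.20 for FL-shAlpl and fell by 0.79 ± 0.18 on the log2 scale (SE; adjusted p = 0.00310), with FL-shGFP replicate 5 again the exception. For complex II, Sdha, the flavin subunit, was at 383, 395, 327, 331 and 392 CPM in the NL-shGFP samples, 352, 401, 406, 236 and 394 for FL-shGFP and 429.6, 407, 544, 522 and 435 for FL-shAlpl. Its change was -0.09 ± 0.12, adjusted p = 0.568. For complex V, the catalytic beta subunit Atp5b was at 1288, 1424, 1154, 1207 and 1334 CPM in the NL-shGFP samples, 1152, 1278, 1313, 753 and 1300 for FL-shGFP and 1564, 1356, 1723, 1935 and 1432 for FL-shAlpl, a change of -0.20 ± 0.13, adjusted p = 0.217. FL-shGFP replicate 4 was the lowest sample of its group for both.

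In fatty liver mice with AAV-shAlpl against those with AAV-shGFP, no mt- member passed the test in either direction. The background was 18.0% of genes higher and 17.9% lower. The median of the 16 was 0.17, with values from -0.20 to 0.79, and at an unadjusted p below 0.05 the count was 1 higher and 0 lower. The value farthest from 0 was that of mt-Atp6, 0.79 ± 0.37, adjusted p = 0.104, and mt-Cytb stood at 0.39 ± 0.23, adjusted p = 0.193. DESeq2 and limma on FPKM also called none.

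Of the 100 nuclear members, 31 rose and 2 fell against that background, with a median of 0.23 against 0.00 for all genes. The assembly factors gave 11 of 20 higher, 1 lower and a median of 0.39. Structural subunits gave 19 of 79 higher and 1 lower, with a median of 0.20. The count of 31 rested partly on single samples. It became 17 without FL-shGFP replicate 1 (12.7% of all genes higher in the same fit), 15 without FL-shGFP replicate 4 (12.8%) and 14 without FL-shAlpl replicate 2 (15.7%). It was 13 with only these 2 groups in the fit (11.8% of all genes), 19 with upper-quartile factors (15.6%) and 54 with totals without mt- counts (23.2%). In the fits that gave 13, 14 and 15, the count lay near or below the share of all genes. This comparison and the previous one share the 5 FL-shGFP samples. In the same comparison 10 of 12 stem cell and 7 of 12 proliferation markers rose, and 11 of 18 immune, 8 of 12 surface colonocyte, 5 of 14 stromal and 3 of 8 goblet cell markers fell, and their part in these counts was not tested.

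Of the complex I assembly factors 6 of 8 rose. Ndufaf4 rose by 0.94 ± 0.21 on the log2 scale (SE; adjusted p = 0.00385), and in the values given above FL-shAlpl replicates 1 and 3 were the highest while replicate 5 lay within the FL-shGFP range. Ndufaf2 rose by 0.80 ± 0.12 on the log2 scale (SE; adjusted p = 0.000275) and Ndufaf5 rose by 0.73 ± 0.14 on the log2 scale (SE; adjusted p = 0.00125), and for both every FL-shAlpl sample exceeded every FL-shGFP sample. The complex IV factor Cox10 rose by 0.61 ± 0.15 on the log2 scale (SE; adjusted p = 0.00556), with overlap. Sdhaf3, an assembly factor of complex II, rose by 0.55 ± 0.20 on the log2 scale (SE; adjusted p = 0.0416).

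Complex V, in which nothing had passed the test before, now had 7 of 16 subunits higher and none lower, with a median of 0.26. Atp5b rose by 0.39 ± 0.13 on the log2 scale (SE; adjusted p = 0.0325), and all FL-shAlpl samples were above all FL-shGFP samples. Atp5c1, the gamma subunit that turns inside the catalytic ring, was at 257, 285, 237, 254 and 282 CPM in the NL-shGFP samples, 269.6, 275, 317, 193 and 315 for FL-shGFP and 352, 336, 402, 364 and 339.7 for FL-shAlpl. It rose by 0.31 ± 0.10 on the log2 scale (SE; adjusted p = 0.0202), again without overlap. The genes Atp5g1 and Atp5g2, which both code for subunit c of the rotor, rose (0.47 ± 0.17, adjusted p = 0.0424; 0.41 ± 0.12, adjusted p = 0.0139), while the third gene for subunit c, Atp5g3, did not pass (0.14 ± 0.11, adjusted p = 0.349). Of the Atp5g2 50-base stretches 38.3% also occur in other transcripts, Gm10175 before all.

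In the other complexes 9 of 38 subunits of complex I rose, 2 of 8 of complex III and 1 of 13 of complex IV, where 18.0% of all genes were higher. The counts of complexes I and III lay near that share and that of complex IV below it. Ndufab1 rose by 0.59 ± 0.09 on the log2 scale (SE; adjusted p = 0.000434) and Cox7a2l rose by 0.46 ± 0.10 on the log2 scale (SE; adjusted p = 0.00345), with FL-shAlpl above FL-shGFP in all samples. The complex III core protein Uqcrc2 was at 254, 269.7, 217, 232 and 262 CPM in the NL-shGFP samples, 254, 269, 288, 180.1 and 292 for FL-shGFP and 334, 304, 371, 342 and 307 for FL-shAlpl. It rose by 0.29 ± 0.10 on the log2 scale (SE; adjusted p = 0.0292), and no sample of the groups overlapped. Of its exonic bases 19.7% are also exon of Pdzd9 on the opposite strand. The 2 nuclear members that fell were both of complex IV. Cox17 fell by 0.84 ± 0.20 on the log2 scale (SE; adjusted p = 0.00552) and Cox6a1 fell by 0.44 ± 0.14 on the log2 scale (SE; adjusted p = 0.0262), each with overlap between the groups.

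**Figure D4:**
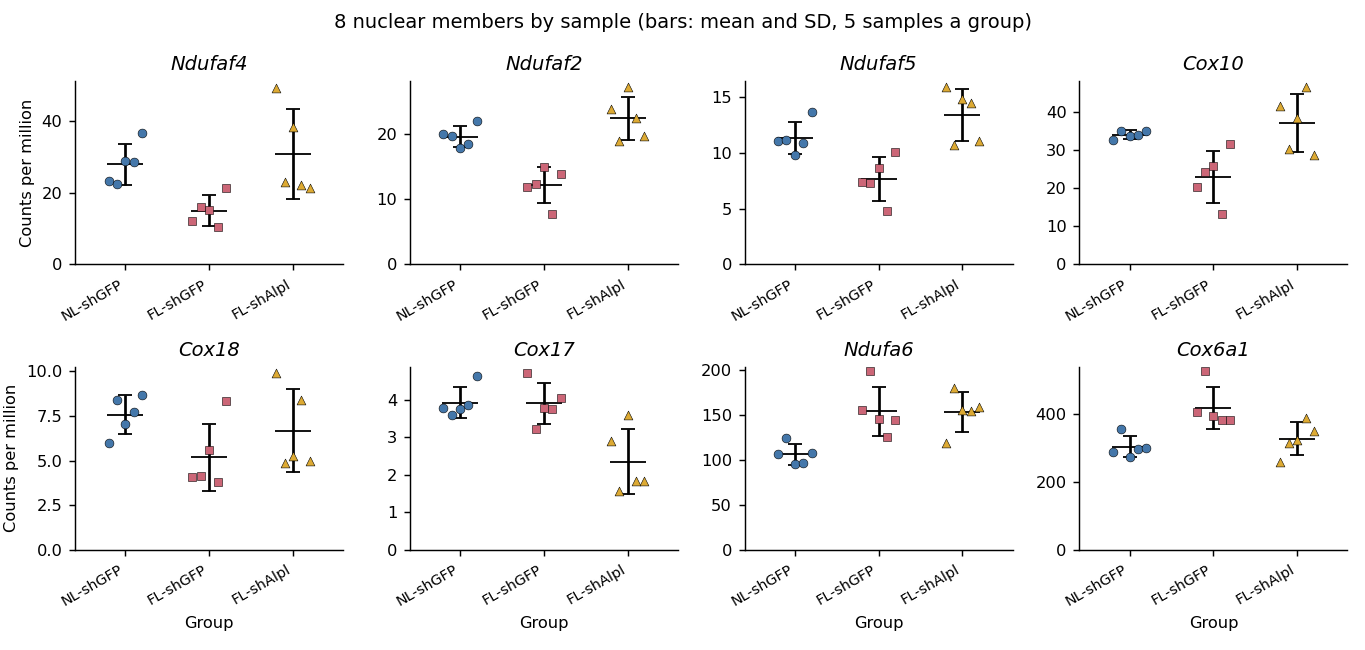
Level of 8 nuclear members in each sample, in CPM of all counts; points are samples, bars are the mean and SD of 5 per group. Ndufaf4, Ndufaf2, Ndufaf5 and Cox10 are lowest in FL-shGFP, Cox17 is lowest in FL-shAlpl with 1.57 to 3.60 CPM, and every FL-shGFP sample of Ndufa6 and Cox6a1 lies above every NL-shGFP sample.

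Compared with NL-shGFP, FL-shAlpl had 9 of 16 mt- members lower and none higher, where 8.12% of all genes were lower and 9.31% higher. The 9 were 8 protein genes and mt-Tp, and the median of the 16 was -0.89 against 0.05 for all genes. In CPM, 7 of the 16 lay below every NL-shGFP sample, as 4.16% of the genes tested did. The count of 9 fell to 5 without NL-shGFP replicate 1, 3 or 4 or FL-shAlpl replicate 3. In those fits 1085 to 1222 genes were lower, of 17671 to 17816 tested. With NL-shGFP replicates 1 and 2, and 3 and 4, summed to 1 sample each, the count of 9 fell to 1, and the median of the 16 was -0.83. Of all genes tested, 703 of 18434 were lower in that fit.

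The values per gene in this comparison were lower than 0 throughout. mt-Co1 fell by 0.83 ± 0.24 on the log2 scale (SE; adjusted p = 0.0251), mt-Cytb fell by 1.01 ± 0.23 on the log2 scale (SE; adjusted p = 0.00825) and mt-Nd4 fell by 0.94 ± 0.23 on the log2 scale (SE; adjusted p = 0.0114), all without overlap in the samples listed above. mt-Co3 fell by 1.91 ± 0.45 on the log2 scale (SE; adjusted p = 0.0103), and without NL-shGFP replicate 2 its log2 fold change was -1.22 and still passed. mt-Nd1 and mt-Nd6 did not pass, at -0.75 ± 0.26, adjusted p = 0.0592 and -0.96 ± 0.32, adjusted p = 0.0503. For mt-Co1 the 3 comparisons gave -0.99, 0.17 and -0.83, and for mt-Cytb -1.40, 0.39 and -1.01, for FL-shGFP against NL-shGFP, FL-shAlpl against FL-shGFP and FL-shAlpl against NL-shGFP, which share samples pairwise.

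Of the nuclear members 4 were higher and 4 lower in FL-shAlpl than in NL-shGFP. Both counts are below the background. Their median was 0.08, and no complex I assembly factor passed the edgeR test (0 higher and 0 lower at an unadjusted p below 0.05). The 4 that rose were Cox11, which delivers copper to mt-Co1 (0.52 ± 0.17, adjusted p = 0.0441), the complex I subunit Ndufb4 (0.39 ± 0.11, adjusted p = 0.0214), Atp5c1 (0.31 ± 0.10, adjusted p = 0.0337) and Uqcrc2 (0.29 ± 0.10, adjusted p = 0.0490). Cox11 shares 48.3% of its exonic bases with Tom1l1 on the opposite strand, and Uqcrc2 shares 19.7% with Pdzd9, also on the opposite strand. Of the Ndufb4 50-base stretches 18.3% also occur in other transcripts. The 4 that fell were Cox6b2 (-1.13 ± 0.32, adjusted p = 0.0243), Cox17 (-0.89 ± 0.20, adjusted p = 0.00731), Ndufb2 (-0.76 ± 0.23, adjusted p = 0.0345) and Ndufa4 (-0.59 ± 0.18, adjusted p = 0.0338), of which the first 3 were at 5.47 CPM or lower in all samples. The count of rises was 0 without NL-shGFP replicate 3 or FL-shAlpl replicate 2 or 5, 1 without NL-shGFP replicate 1 or 4 or FL-shAlpl replicate 3, and 2 without NL-shGFP replicate 2 or 5 or FL-shGFP replicate 1 or 3. The count of falls was 1 without NL-shGFP replicate 2 or FL-shAlpl replicate 2, and 2 without NL-shGFP replicate 3 or 5 or FL-shAlpl replicate 4 or 5. With single samples left out, 868 to 1978 of all genes were higher and 1085 to 1545 lower, of 17587 to 17816 tested.

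Several subunits of complex IV exist as paralogs with tissue-bound use, and crypts held mainly the forms of non-muscle tissue. Mean FPKM in NL-shGFP was 258 for Cox4i1 and 0.0150 for Cox4i2. For subunit 6A it was 433 for Cox6a1 and 0.215 for the muscle form Cox6a2, and for subunit 6B it was 459 for Cox6b1 and 2.84 for the testis form Cox6b2. Subunit 7A gave 158 for Cox7a2, 108 for Cox7a2l and 23.2 for the heart and muscle form Cox7a1. Subunit 8 gave 586 for Cox8a and 0.0269 for Cox8b. None of Cox4i1, Cox6b1, Cox7a1, Cox7a2 and Cox8a passed the test in any of the 3 comparisons, with log2 fold changes from -0.39 to 0.21. Over all 15 samples the nuclear subunits with the highest mean FPKM were Cox8a (645) and Cox6a1 (499) in complex IV, Atp5a1 (446) and Atp5b (318) in complex V, Uqcr10 (402) and Uqcrh (232) in complex III, Sdhd (238) and Sdha (96.2) in complex II, and Ndufb10 (163) and Ndufb11 (149) in complex I.

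Other genes of the same machinery were taken from lists, whose counts are to be read against the shares of all genes tested. Those were 25.1% higher and 21.6% lower in FL-shGFP against NL-shGFP, and 18.0% and 17.9% in FL-shAlpl against FL-shGFP. In FL-shAlpl against NL-shGFP they were 9.31% and 8.12%. These lists, too, were chosen with earlier results of these data known. The 79 tested genes of the mitochondrial ribosome, which translates the 13 mt- messenger RNAs, had 51 lower and none higher in FL-shGFP against NL-shGFP (median -0.45), 63 higher and none lower in FL-shAlpl against FL-shGFP (median 0.56), and none either way in FL-shAlpl against NL-shGFP (median 0.07; at an unadjusted p below 0.05, 7 higher and 1 lower by edgeR). Outside mt- counts they made up 0.395% ± 0.0138 (SD, n = 5), 0.238% ± 0.0593 and 0.391% ± 0.0623 of the total in the 3 groups. Mrpl34 fell by 0.94 ± 0.13 on the log2 scale (SE; adjusted p = 7.66e-05) and Mrps15 fell by 0.67 ± 0.12 on the log2 scale (SE; adjusted p = 0.000403). Assembly genes outside the symbol rule gave 14 of 24 lower and 14 of 24 higher in the first and second comparison. Of these the complex III factor Lyrm7 fell by 1.49 ± 0.21 on the log2 scale (SE; adjusted p = 9.50e-05) in the first and rose by 1.22 ± 0.21 on the log2 scale (SE; adjusted p = 0.000804) in the second, and Timmdc1 of complex I fell by 0.82 ± 0.10 on the log2 scale (SE; adjusted p = 2.99e-05).

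Genes that copy and transcribe mitochondrial DNA gave 10 of 18 lower and 1 higher in FL-shGFP against NL-shGFP (median -0.50). In FL-shAlpl against FL-shGFP, 8 were higher and none lower. In FL-shAlpl against NL-shGFP, none were higher and 1 lower, near or below the 9.31% and 8.12% of all genes. Twnk, the replicative helicase, averaged 26.6 CPM ± 5.51 (SD, n = 5) in NL-shGFP, against 9.02 CPM ± 3.66 for FL-shGFP and 20.2 CPM ± 6.25 for FL-shAlpl and fell by 1.63 ± 0.22 on the log2 scale (SE; adjusted p = 6.86e-05). Tfam, which packs the genome and starts its transcription, averaged 44.2 CPM ± 2.94, 28.5 CPM ± 8.78 and 46.3 CPM ± 9.37 in the same order and fell by 0.70 ± 0.14 on the log2 scale (SE; adjusted p = 0.000912). Polrmt, the mitochondrial RNA polymerase, did not pass (-0.41 ± 0.23, adjusted p = 0.159). For mitochondrial RNA processing and stability 13 of 18 fell and none rose in the first of these comparisons, 14 rose and 1 fell in the second, and none rose and 1 fell in the third. The counts in the third again lay near or below the shares of all genes. Pnpt1, an exoribonuclease, fell by 1.10 ± 0.23 on the log2 scale (SE; adjusted p = 0.00145) in FL-shGFP against NL-shGFP and rose by 0.94 ± 0.23 on the log2 scale (SE; adjusted p = 0.00625) in FL-shAlpl against FL-shGFP.

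Import of proteins gave 12 of 20 lower in the first comparison and 17 higher in the second, and 1 higher in the third, near or below the share of all genes there. Timm10, a chaperone between the membranes, fell by 0.97 ± 0.19 on the log2 scale (SE; adjusted p = 0.000797). Tricarboxylic acid cycle genes went both ways, with 7 of 21 lower and 4 higher in FL-shGFP against NL-shGFP, to which the values that follow belong, and where 21.6% of all genes were lower and 25.1% higher. Idh3a fell by 0.75 ± 0.13 on the log2 scale (SE; adjusted p = 0.000338) whereas citrate synthase, Cs, rose by 0.70 ± 0.12 on the log2 scale (SE; adjusted p = 0.000329) and pyruvate carboxylase, Pcx, rose by 2.37 ± 0.40 on the log2 scale (SE; adjusted p = 0.000393). Carriers and channels had 5 of 11 higher and none lower, among them the ATP/ADP carrier Slc25a5 (0.43 ± 0.12, adjusted p = 0.00867) and the creatine kinase Ckmt1 (1.37 ± 0.28, adjusted p = 0.00123). Electron carriers and their partners had 4 of 18 higher, near the share of all genes, and 6 lower. Sqor, which feeds electrons from sulfide into ubiquinone, rose by 0.60 ± 0.14 on the log2 scale (SE; adjusted p = 0.00276), and Coq2, of ubiquinone synthesis, fell by 0.76 ± 0.16 on the log2 scale (SE; adjusted p = 0.00161). Protein quality control and antioxidant genes had 7 of 26 higher, again near that share, and 10 lower, and the chaperonin gene Hspe1 fell by 1.64 ± 0.27 on the log2 scale (SE; adjusted p = 0.000307).

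Of 12 regulators of mitochondrial gene expression, 2 rose and 3 fell in FL-shGFP against NL-shGFP, near or below the 25.1% higher and 21.6% lower among all genes. Ppargc1a, the coactivator PGC-1α, averaged 12.1 CPM ± 2.33 (SD, n = 5) in NL-shGFP, against 25.2 CPM ± 5.44 for FL-shGFP and 27.9 CPM ± 10.01 for FL-shAlpl. It rose by 1.02 ± 0.25 on the log2 scale (SE; adjusted p = 0.00431). The nuclear receptor Esrrg rose by 1.60 ± 0.36 on the log2 scale (SE; adjusted p = 0.00239), and Pprc1, a relative of PGC-1α, fell by 1.13 ± 0.22 on the log2 scale (SE; adjusted p = 0.000920) and, in FL-shAlpl against FL-shGFP, rose by 0.96 ± 0.22 on the log2 scale (SE; adjusted p = 0.00424). Esrra did not pass (0.07 ± 0.11, adjusted p = 0.649). Atpif1, the inhibitor of ATP synthase whose symbol lies outside the rule, averaged 46.2 CPM ± 4.87, 34.1 CPM ± 9.51 and 51.5 CPM ± 6.18 in the same order and fell by 0.50 ± 0.12 on the log2 scale (SE; adjusted p = 0.00384).

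The promoters of nuclear members were searched for the core letters of 2 factors known to act on respiratory genes, GCGCATGC for NRF1 and CCGGAAGT for GABP, on both strands. RefSeq promoters (GRCm38.p6, from 250 bases before to 50 after the start) were found for 82 of the 100. Of these 12 (14.6%) held the NRF1 letters, 9 (10.98%) the GABP letters and 20 (24.4%) either, against 3.05%, 4.31% and 7.06% of the 27025 genes in the promoter table. Assembly factors held either in 6 of 17 (35.3%), structural subunits in 14 of 65 (21.5%) and ribosome genes in 19 of 68 (27.9%). In FL-shGFP against NL-shGFP, both nuclear members that rose, Ndufa6 and Cox6a1, held the NRF1 letters. Either motif was held by 5 of the 20 members that fell and by 13 of the 60 that did not pass, counting those with a RefSeq promoter. The 150 bases upstream of the start are printed for 3 genes that fell in FL-shGFP and hold a match, and for Ndufaf2, which fell and has none, with the matching bases in capitals.
Ndufaf4: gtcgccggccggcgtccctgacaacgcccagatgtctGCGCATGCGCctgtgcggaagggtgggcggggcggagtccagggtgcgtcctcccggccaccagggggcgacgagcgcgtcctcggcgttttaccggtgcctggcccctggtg
Cox10: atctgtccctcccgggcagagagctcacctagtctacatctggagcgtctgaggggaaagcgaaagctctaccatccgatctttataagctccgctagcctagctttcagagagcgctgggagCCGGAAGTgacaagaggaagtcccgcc
Uqcrh: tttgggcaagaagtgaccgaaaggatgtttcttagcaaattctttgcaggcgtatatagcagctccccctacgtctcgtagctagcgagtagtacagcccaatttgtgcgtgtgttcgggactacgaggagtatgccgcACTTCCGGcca
Ndufaf2: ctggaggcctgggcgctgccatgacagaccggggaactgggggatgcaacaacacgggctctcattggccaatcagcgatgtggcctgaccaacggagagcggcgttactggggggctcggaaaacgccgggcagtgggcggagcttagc
The windows lie at chr4:24897933-24898082 (plus strand, Ndufaf4), chr11:64079473-64079622 (minus strand, Cox10), chr4:116075071-116075220 (minus strand, Uqcrh) and chr13:108158626-108158775 (minus strand, Ndufaf2). Ndufaf4 holds the NRF1 letters, which read on both strands in overlapping positions, Cox10 holds the GABP letters and Uqcrh their reverse complement. A match describes the letters only.

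Across the 15 samples the genes whose log2 level followed the mt- to nuclear ratio most closely, outside the members, were nuclear copies: Gm10925 (Pearson r = 0.959), Gm13340 (0.939), Gm28438 (0.939), Gm10222 (0.923) and Gm4076 (0.918). They share sequence with mt-Atp6, mt-Co1, mt-Nd3, mt-Nd4l and mt-Nd5 in that order, so the ratio and these genes are not separate measurements.

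**Figure D5:**
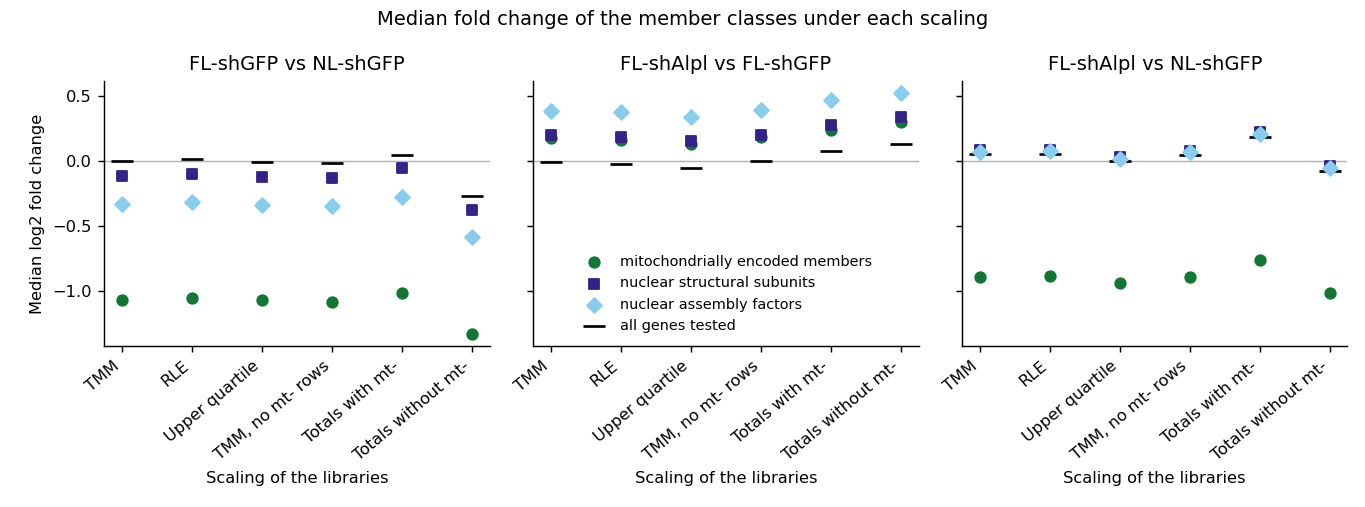
Median log2 fold change of the mitochondrially encoded members, the nuclear structural subunits, the nuclear assembly factors and all genes tested under 6 scalings of the libraries, in the 3 comparisons. With totals that leave out mt- counts the median of all genes moved to -0.27 in FL-shGFP vs NL-shGFP, and the mt- members stayed between -1.33 and -1.02 in that comparison under the 6 scalings.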

How the data were processed

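RNA-seq of colonic crypts was deposited as counts per gene and FPKM for 15 samples. The counts were made by the authors with an alignment by HISAT2, per the submitters' processing notes. The sources used here do not give its version, the genome build, the annotation, the counting tool or the use of strand. The FPKM values deposited by the authors were used for levels per length and in 1 alternative. Among counts from 1 to 12, 72.4 to 77.2% were even, and an alternative with counts halved was run.

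Counts as deposited were fitted with edgeR 4.0.16 (TMM factors, filterByExpr, robust quasi-likelihood test, 1 mean per group, all 15 samples, 12 residual degrees of freedom). P-values were adjusted by Benjamini-Hochberg over the 17404 genes tested, and a gene was called at an adjusted p below 0.05. CPM used all counts as total unless stated. Library totals ran from 33272941 to 58590251 counts. The standard error of a log2 fold change is its size divided by the square root of F. The scripts were tested on simulated data. Alternatives used limma 3.58.1, DESeq2 1.42.0, other scalings, filters and sets of samples.

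Genes to be named were chosen by size of fold, abundance and paralogy, with up to 10 nuclear rises and 10 falls in FL-shGFP against NL-shGFP and up to 5 and 5 in the other comparisons, all mt- protein and ribosomal RNA genes, and up to 4 called genes per list. Ndufaf1, Ndufaf7, Ndufs1, Ndufs3, Ndufs8, Sdhaf3 and mt-Tp fall outside that rule and were chosen after their values were seen. The members and all lists were chosen with earlier results of these data known. Replicate numbers were not treated as pairs in the reported fit. Correlations between same-numbered samples ran from -0.58 to 0.458. In FL-shGFP against NL-shGFP, replicates 1, 2 and 5 correlated best with their own number (0.263, 0.192 and 0.458), and replicates 3 and 4 did not. In the other comparisons only FL-shAlpl replicate 1 against NL-shGFP did. Whether the numbers mark pairs was not settled by these values. Positions are from GENCODE M21 (GRCm38) and promoters from RefSeq (GRCm38.p6), which may differ from the build of the counts.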

Additional observations from a re-analysis of the deposited data

Results flagged for a closer look

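Single samples stood apart from the other 4 of their group, by a gap of more than 0.71 of the group's range, in 18 of 159 sets of CPM values examined (11.3%). Each set held 1 gene in 1 group of samples. Chance alone gives about 1 in 20 for independent, normally distributed values, which CPM values of genes in the same library need not be. NL-shGFP replicate 2 was high for mt-Co3 (4661 CPM, the others from 857 to 1477), Uqcr10 (287 CPM, the others from 204 to 225), Cox4i1 (488 CPM, the others from 358 to 395), Atp5g1 (195 CPM, the others from 138 to 154) and Atp5g3 (449.9 CPM, the others from 396 to 399). NL-shGFP replicate 5 was high for Ndufb2 (5.47 CPM, the others from 2.89 to 3.46), Cox17 (4.63 CPM, the others from 3.58 to 3.86) and Cox7a2l (195 CPM, the others from 145 to 158). NL-shGFP replicate 3 was high for mt-Nd4l (108 CPM, the others from 44.1 to 61.5) and NL-shGFP replicate 4 for mt-Atp6 (1210 CPM, the others from 368 to 494).

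FL-shGFP replicate 4 was high for the ribosomal RNAs mt-Rnr1 (4890 CPM, the others from 2102 to 2670) and mt-Rnr2 (8161 CPM, the others from 2944 to 4292) and low for Ndufb11 (68.9 CPM, the others from 122 to 141) and Atp5b (753 CPM, the others from 1152 to 1313). FL-shGFP replicate 2 was high for Cox6a1 (526 CPM, the others from 381 to 407) and FL-shGFP replicate 5 for Atp5s (6.07 CPM, the others from 2.72 to 3.55). In FL-shAlpl, replicate 1 was high for mt-Atp6 (743 CPM, the others from 258 to 316) and replicate 4 for Uqcr10 (343 CPM, the others from 232 to 255).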

How the results depend on the processing

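The 13 falls among mt- members in FL-shGFP against NL-shGFP became 10 to 14 when single samples were left out, and no mt- member rose (0 to 0). In those fits 2980 to 4281 genes were lower and 3861 to 4540 higher, of 17587 to 17816 tested. The log2 ratio of mt- to nuclear counts ran from -1.19 to -0.86 in FL-shGFP against NL-shGFP. It ran from -0.14 to 0.19 in FL-shAlpl against FL-shGFP and from -1.11 to -0.87 in FL-shAlpl against NL-shGFP. In FL-shAlpl against FL-shGFP, mt- rises ran from 0 to 1 (1 without NL-shGFP replicate 4) and falls from 0 to 0. Of all genes, 12.7 to 20.9% were higher and 13.4 to 19.8% lower in these fits. In FL-shAlpl against NL-shGFP, mt- falls ran from 5 to 12 and rises from 0 to 0, with 5 without NL-shGFP replicate 1, 3 or 4 or FL-shAlpl replicate 3. Among all genes, 1085 to 1545 were lower and 868 to 1978 higher in these fits, of 17587 to 17816 tested.

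Nuclear counts depended more on the setting. For FL-shGFP against NL-shGFP the 2 rises became 4 with totals including mt- counts, with a filter of 1 CPM in 5 samples, with DESeq2 and with limma on log2 FPKM, 0 with totals without mt- counts and 1 with close NL-shGFP samples summed. The 23 falls became 9, 63, 15 and 10 with totals including mt- counts, totals without them, summed samples and limma. Of all genes tested, 2351 of 17404, 6258 of 17584, 2728 of 18434 and 2723 of 17404 fell in the same order of fits. Those that rose were 4521 of 17404 with totals including mt- counts and 4488 of 17404 with limma. They were 3824 of 13811 with the 1 CPM filter and 4754 of 17404 with DESeq2. With totals without mt- counts 2831 of 17584 rose, and with summed samples 3458 of 18434. Single samples left out gave 1 to 4 rises (1 without NL-shGFP replicate 1, 3 or 5 or FL-shGFP replicate 2, 4 without FL-shGFP replicate 5) and 16 to 27 falls. In these fits 3861 to 4540 genes were higher and 2980 to 4281 lower, of 17587 to 17816 tested. The nuclear rises lay below that share of all genes, and the range of falls lay near it. For FL-shAlpl against FL-shGFP the 31 rises became 19 with upper-quartile factors, 54 with totals without mt- counts, 13 with only these groups and 20 with summed samples, and 14 to 43 with single samples left out. In the same order, 15.6, 23.2, 11.8, 14.9 and 12.7 to 20.9% of all genes were higher. The 2 falls became 1 with totals without mt- counts, with only these groups, with limma and without FL-shGFP replicate 2 or FL-shAlpl replicate 1 or 3 (1 to 2). Of all genes, 13.3, 15 and 15.1% were lower in the first 3 of these fits, and 13.4 to 19.8% with single samples left out.

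For FL-shAlpl against NL-shGFP the 4 rises became 1 with upper-quartile factors, 12 with totals including mt- counts, 11 with limma and 0 with totals without mt- counts, no filter and summed samples (0 to 5 with single samples left out). Of all genes tested, 1227, 2780 and 2356 of 17404 were higher in the fits that gave 1, 12 and 11. In those that gave 0, 1003 of 17584, 1148 of 31859 and 637 of 18434 were. The 12 and 11 of 100 nuclear members lay below those shares. The 4 falls became 1 with totals including mt- counts, 1 with summed samples and 2 with limma (1 to 4). In these fits 930 of 17404, 703 of 18434 and 991 of 17404 genes tested were lower. With the replicate block, mt- falls in this comparison went from 9 to 5 and nuclear falls from 4 to 2, while mt- falls in FL-shGFP against NL-shGFP went from 13 to 10. That fit had 1220 and 3291 of 17404 genes lower in these comparisons, in that order. The replicate numbers share no stated origin. Where scaling or the number of samples was not what changed, the cause was not tested. Of the alternative values for single named members, 3821 kept their call, 243 lost it, 52 gained it and none reversed, and 156 changed sign where neither value passed the test.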
